A study of Arabidopsis thaliana with 12 samples.

Results

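The comparison described here is of the shoots of Arabidopsis thaliana seedlings after their roots had been given β-estradiol, against the shoots of seedlings whose roots had been given the solvent DMSO. It was taken as the 3 arrays titled as estradiol shoots and the 3 titled as DMSO shoots, which are 6 of the 12 arrays of the series. The other 6 arrays are of the roots of seedlings treated in the same 2 ways. All seedlings, controls included, carried CLE2 under an estradiol-inducible system, were 7 days old, and had been grown on vertical plates at 22 °C in continuous white light. Their roots were treated for 24 h, at a concentration that the labels give as 5 mM, and roots and shoots were then collected apart. Estradiol was not given to seedlings without the inducible gene, so effects of estradiol and of CLE2 induction cannot be told apart. The titles alone separate the treatments, since the protocol text describes estradiol for every sample. The labels name no promoter beyond the inducible system, no number of independent lines and no number of seedlings per array. Whether the replicates came from separate cultures is not stated either, and the p-values cover only the spread among the arrays at hand.

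CLE peptides are short secreted signals of plants that are perceived by receptor kinases at the cell surface, and some of them travel between roots and shoots. The study looked for genes downstream of CLE2, and the shoot samples address the response away from the treated organ. Shoots fix carbon and export sucrose to the root, and their gene expression follows sugar and nitrogen supply closely. When sugar is short, the kinase SnRK1 is active and a set of sugar-repressed genes, many of them also induced by darkness, is switched on. When sugar is plentiful, these genes are repressed and genes of starch and anthocyanin synthesis are induced. Nitrate likewise induces transporters, assimilation enzymes and a family of repressors, NIGT1/HHO, that limit nitrogen uptake genes.

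Expression was given as log2 signal per probe set, and 16548 genes could be named and tested, 43.5% of the probe sets being paired with 1 gene. CLE2 is not among the genes named here, so its induction was not analysed here. Within the shoot groups, array correlations ran from 0.986 to 0.990. The median signal over all probe sets was 5.42 to 5.47 on the estradiol shoot arrays and 5.51 to 5.55 on the DMSO shoot arrays, without overlap. The shoot label was borne out by 9 photosystem and light-harvesting genes, with medians of 10.41 to 10.66 on the 6 shoot arrays and 7.31 over the root arrays. For 90 genes at least 5 log2 units higher in roots than in shoots over all arrays, the median was 3.56 to 3.60 on DMSO shoot arrays and 3.56 to 3.71 on estradiol shoot arrays. The ranges overlap, and of these genes 6 were above (6.67%) and 5 below (5.56%) without overlap, near the 6.85% and 6.38% of all genes. When the same margin was taken from the DMSO arrays alone, 101 genes were picked. Their median was 3.57 to 3.59 on DMSO shoot arrays and 3.73 to 3.81 on estradiol shoot arrays, without overlap. Of these 101 genes 11 were above and 4 below, against 6.85% and 6.38% of all genes. This choice uses the DMSO shoot values that enter the change, which can favour higher estradiol values.

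In the estradiol shoots 22 genes rose and 5 fell (limma, Benjamini-Hochberg adjusted p under 0.05), which is 0.133% and 0.0302% of all genes and 0.163% together. Rises ranged from 1.53-fold to 2.48-fold, and 11 of the 27 genes changed at least 2-fold. The risers included 3 sugar-repressed genes, 4 genes of the DUF506 family of uncharacterised proteins, 1 CC-type glutaredoxin, and genes for transcription factors and ubiquitin ligase components. The fallers included 2 genes of the lipid transfer protein superfamily and 1 sugar transporter gene. In all 27 genes the 3 estradiol values lay apart from the 3 DMSO values, as they did in 13.2% of all genes. The 27 were chosen by p on these same values, which favours groups that lie apart. The calls depended on the arrays fitted: limma called 0 genes when the 6 shoot arrays were fitted alone (1239 with an unadjusted p under 0.05), and also 0 when either estradiol shoot replicate 1 or replicate 3 was left out. Leaving out estradiol shoot replicate 2 gave 17 calls, DMSO shoot replicate 2 or 3 gave 6 each, and, through the shared spread, root arrays gave 1 (DMSO replicate 2), 3, 6, 6 and 7 (estradiol replicates 2 and 3, DMSO replicate 3 and estradiol replicate 1). With array medians subtracted, 55 genes were higher and 4 lower, against a median change of all genes that moved from -0.004 to 0.08. The named family of each gene below is general knowledge of the locus; the annotation used gives most of these genes only a locus code.

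**Figure D1:**
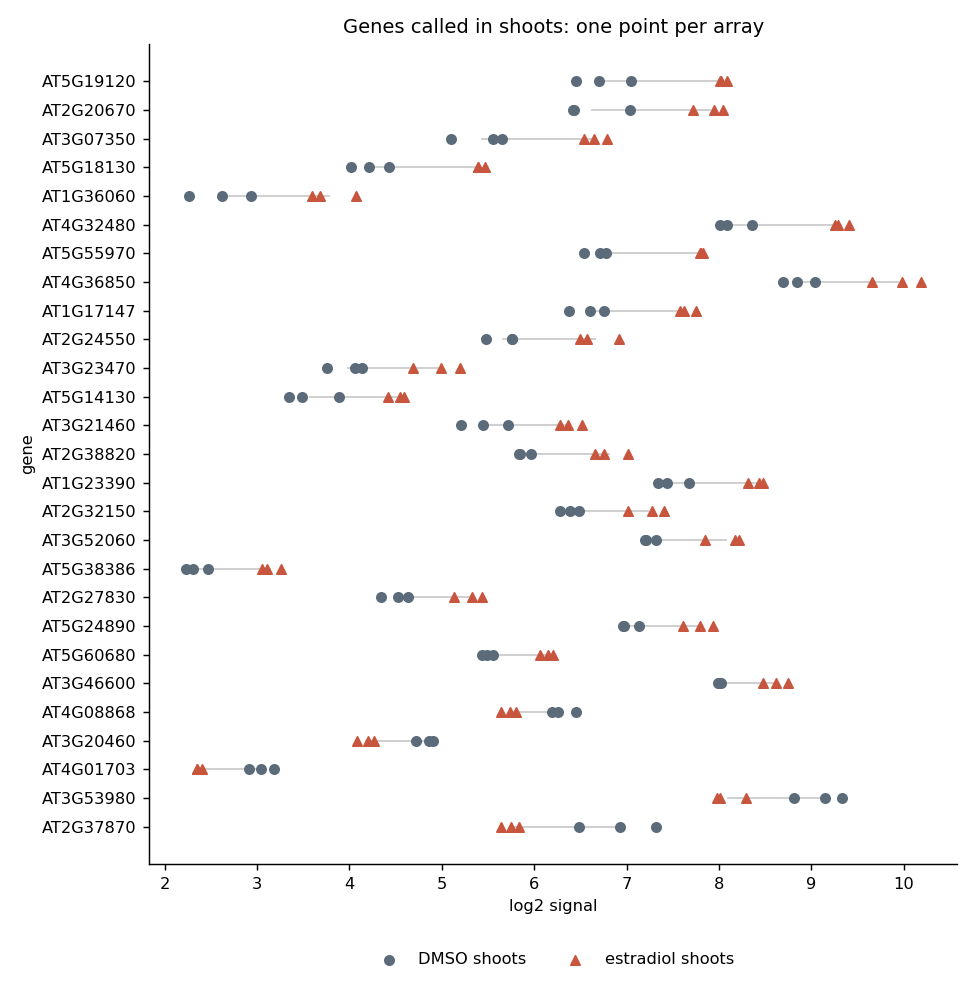
Log2 signal (x axis) of the 27 genes called in shoots (y axis, ordered by change), with 1 point per array: circles for the 3 DMSO shoot arrays and triangles for the 3 estradiol shoot arrays, and a line joining the group means. In the upper 22 genes all triangles lie to the right of all circles, in the lower 5 to the left.

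Of the sugar-repressed genes, those that sugar starvation or darkness is known to induce, 15 of 51 listed were measured, and 3 rose, 0 fell. Of all genes 0.133% rose and 0.0302% fell. AT5G19120, an aspartyl protease family gene, was at 7.04, 6.70 and 6.45 in DMSO shoots and at 8.09, 8.02 and 8.02 in estradiol shoots (log2 signal, replicates 1, 2 and 3 here and below). The estradiol values were nearly equal, the DMSO values more spread, and the groups lay apart. It rose by 1.31 ± 0.18 log2 units (adjusted p = 0.0338). The ± values throughout are limma standard errors with n = 3 per group, from a spread shared by all 12 arrays, roots included. AT2G20670, a DUF506 gene, was at 7.04, 6.43 and 6.42 and at 8.05, 7.72 and 7.95, and rose by 1.28 ± 0.20 (adjusted p = 0.0404). Its DMSO replicate 1 was the highest of that group and still below every estradiol value. AT2G32150, a gene of the haloacid dehalogenase-like hydrolase family, was at 6.39, 6.28 and 6.48 and at 7.41, 7.01 and 7.27, and rose by 0.85 ± 0.14 (adjusted p = 0.0495).

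The remaining sugar-repressed genes did not pass the threshold, and are given as values. In 12 of the 15 all estradiol values were above all DMSO values, against 6.85% of all genes, and in 0 all were below, against 6.38%. The median change over the 15 was 0.77, against -0.004 over all genes, and 14 were positive. The list was written with earlier results of these arrays known. Without the 4 genes that those results named, 8 of 11 were above (72.7%, against 6.85% of all genes) and the median was 0.59. AT3G15450 and AT4G27450 encode related proteins with YGL and LRDR motifs and are widely used as markers of low sugar. AT3G15450 was at 9.68, 8.87 and 8.85 in DMSO shoots and 10.86, 10.24 and 10.71 in estradiol shoots, a difference of 1.47 ± 0.27 (adjusted p = 0.0717). AT4G27450 was at 7.67, 7.18 and 7.56 and at 9.30, 8.46 and 8.96, a difference of 1.44 ± 0.26 (adjusted p = 0.0728). In both genes the groups lay apart, by a difference larger than that of any called riser, with a wider spread between replicates. The other 3 measured genes of their family, among them AILP1, had differences of 0.25 or less.

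AT3G15630 was at 7.00, 6.41 and 6.05 in DMSO shoots and 7.91, 7.37 and 7.67 in estradiol shoots (difference 1.16 ± 0.22). AKINBETA1, a regulatory β subunit of SnRK1, was at 9.19, 8.60 and 8.80 and at 9.95, 9.39 and 9.88 (difference 0.88 ± 0.19). In both, replicate 1 was the highest array of its treatment. The differences were 0.77 ± 0.23 for AT1G26800, a RING finger gene, and 0.59 ± 0.18 for AT1G54740. They were 0.55 ± 0.16 for the lipase family gene AT5G18630 and 0.46 ± 0.12 for AT3G26510, which has a PB1 domain. The groups of these 4 genes did not overlap. The list also holds genes of amino acid breakdown and related metabolism: AT1G21400, a subunit of the branched-chain ketoacid dehydrogenase (0.51 ± 0.17), MCCB (0.26 ± 0.13), ETFQO, which passes electrons from this breakdown to the respiratory chain (0.11 ± 0.14), and PPDK, pyruvate orthophosphate dikinase (-0.16 ± 0.14). Of these 4 only MCCB had groups that did not overlap.

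**Figure D2:**
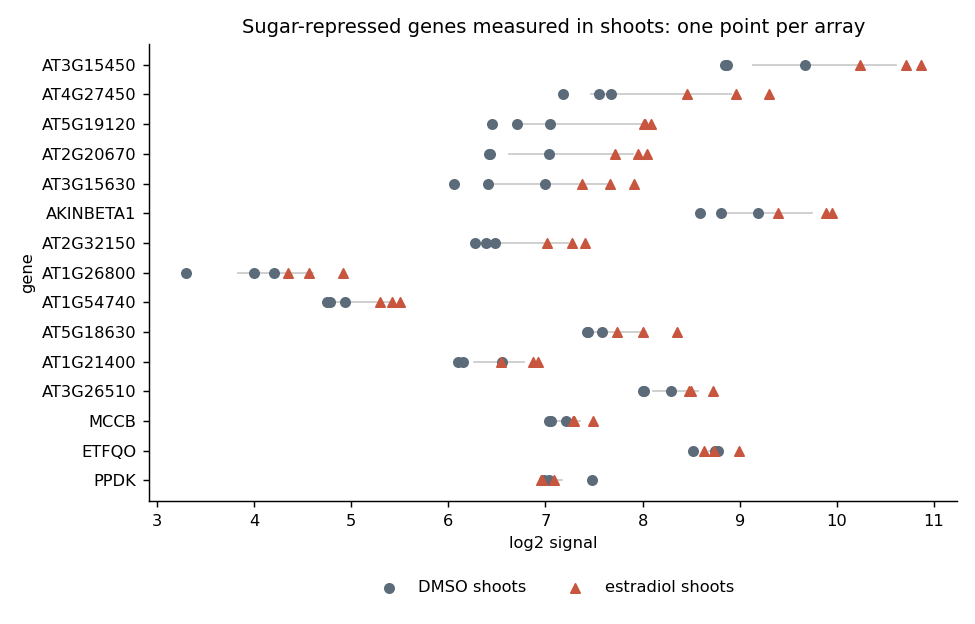
Log2 signal (x axis) on each shoot array for the 15 measured sugar-repressed genes (y axis, ordered by change), with circles for DMSO and triangles for estradiol and a line joining the means. The groups lie apart, with estradiol higher, in all but AT1G21400, ETFQO and PPDK.

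Among the other carbon genes listed 0 were called. Of 5 measured components of the SnRK1 and TOR kinases, AKINBETA1 was above and AT4G16360, a further β subunit gene of SnRK1, below (-0.13 ± 0.10). These are 20% each, against 6.85% and 6.38% of all genes. RAPTOR1, a TOR complex protein, differed by 0.04 ± 0.11. Of 11 autophagy genes, whose products recycle cell contents, 0 passed the threshold, and the median was 0.10. Only ATG8F was above, at 0.22 ± 0.08 (9.09% of the 11, against 6.85% of all genes). ATG8E was at 6.63, 5.88 and 6.19 in DMSO shoots and 6.95, 6.55 and 6.81 in estradiol shoots, which overlap. All 3 measured sugar-induced genes had negative differences, and 0 passed the threshold. APL3, a large subunit of ADP-glucose pyrophosphorylase in starch synthesis, was at 6.23, 6.66 and 6.17 and at 5.82, 6.04 and 5.64, every estradiol value being below every DMSO value (difference -0.52 ± 0.16, adjusted p = 0.297). The related APL4 was at -0.25 ± 0.10 and the anthocyanin enzyme gene DFR at -0.10 ± 0.23, both with overlapping groups. The 7 starch and sucrose genes had a median of -0.06, and the 9 flavonoid and anthocyanin genes a median of -0.13 with 1 below. None of the listed trehalose genes was measured.

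All 13 listed DUF506 genes were measured, and 4 of them rose, against 0.133% of all genes. AT2G20670 is described above. AT3G07350 was at 5.65, 5.55 and 5.09 in DMSO shoots and 6.79, 6.54 and 6.65 in estradiol shoots, and rose by 1.22 ± 0.15 log2 units (adjusted p = 0.0205). AT4G32480 was at 8.36, 8.01 and 8.09 and at 9.26, 9.29 and 9.41, and rose by 1.17 ± 0.17 (adjusted p = 0.0338). AT2G38820 was at 5.84, 5.96 and 5.85 and at 7.02, 6.75 and 6.66, and rose by 0.93 ± 0.15 (adjusted p = 0.0495). The risers span a wide range of DMSO levels, and in each the lowest estradiol value was well clear of the highest DMSO value. AT4G14620, at 0.51 ± 0.10 (adjusted p = 0.0929), and AT3G22970, at 0.26 ± 0.10, were above without passing the threshold, so that 6 of 13 were above, against 6.85% of all genes. The other 7 overlapped, with differences from -0.16 to 0.35. The family median was 0.30 and 12 of 13 were positive. The family was listed after its called members had been seen, so its counts describe it only. Also listed after shoot values had been seen were the VQ, Kelch F-box, peroxidase, S40, cyclopropane synthase, lipid transfer, sugar transporter, and measured growth and photosynthesis families below.

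Nitrogen genes were represented mainly by NIGT1/HHO, GARP-type transcriptional repressors that nitrate induces. Of 7 listed, 5 were measured and 0 passed the threshold. Of the 5, 4 were above, against 6.85% of all genes, and the median difference was 0.51. AT1G68670 and AT1G25550 among them had been named in earlier results of these arrays, so the counts describe the family only. AT1G68670 (HHO2) was at 6.93, 7.16 and 7.13 in DMSO shoots and 7.69, 7.54 and 7.52 in estradiol shoots (difference 0.51 ± 0.10, adjusted p = 0.0870). AT4G37180 (HHO5) was at 6.35, 6.17 and 6.25 and at 7.03, 6.71 and 6.62 (difference 0.53 ± 0.11, adjusted p = 0.106). AT3G25790 (HHO1) was at 3.80, 3.42 and 4.05 and at 4.28, 4.86 and 4.40 (difference 0.76 ± 0.18, adjusted p = 0.170). The groups lay apart in all 3, with the narrowest gap in HHO1. AT1G25550 (HHO3) had a high and even level, 10.05, 10.03 and 10.06 against 10.31, 10.27 and 10.44 (difference 0.30 ± 0.09). AT1G49560 (HHO6) overlapped, with -0.17 ± 0.15. In roots the median difference of the 5 was 0.05.

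CC-type glutaredoxins are small redox proteins of land plants that bind TGA transcription factors, and several of them respond to nitrogen supply in shoots. Of 19 listed, 18 were measured, 1 rose and 0 fell, against 0.133% and 0.0302% of all genes. AT3G21460 was at 5.45, 5.72 and 5.21 in DMSO shoots and 6.52, 6.36 and 6.28 in estradiol shoots, and rose by 0.93 ± 0.13 (adjusted p = 0.0338). AT4G15660 had the largest difference of the family, 1.67 ± 0.31, but did not pass (adjusted p = 0.0767). It was at 2.92, 3.08 and 3.48 and at 5.57, 4.43 and 4.49, so estradiol replicate 1 stood far above the other estradiol arrays and all of them above DMSO. AT3G62950 (0.93 ± 0.24), AT4G15670 (0.93 ± 0.29), AT4G15700 (0.48 ± 0.28) and AT3G62960 (0.37 ± 0.15) were also above. AT4G15660 to AT4G15700 are neighbouring genes with closely similar coding sequences, and whether their probes share signal was not tested. AT1G06830 and AT2G47880, which encode shoot-to-root messengers of nitrogen demand, overlapped, at 0.21 ± 0.33 and 0.02 ± 0.22. ROXY1 and ROXY2, which act in flower development, overlapped as well. The family median was 0.31, with 13 of 18 positive.

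The remaining risers are described singly, ordered by the kind of protein they encode. AT1G17147 (VQ1), of a family whose VQ motif proteins bind WRKY transcription factors, was at 6.60, 6.38 and 6.76 in DMSO shoots and 7.75, 7.58 and 7.62 in estradiol shoots. It rose by 1.07 ± 0.10 log2 units and had the smallest adjusted p, 0.00824. The 15 other measured VQ genes overlapped between groups. The AP2/ERF transcription factor gene AT1G36060 was low, at 2.93, 2.62 and 2.27 and at 3.68, 3.60 and 4.07, and rose by 1.18 ± 0.16 (adjusted p = 0.0338). AT3G46600, a GRAS family transcription factor gene, was almost level in DMSO shoots, at 8.02, 8.01 and 7.995. It was at 8.48, 8.62 and 8.75 in estradiol shoots, and rose by 0.61 ± 0.09 (adjusted p = 0.0356).

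The RING-type ubiquitin ligase gene AT5G55970 was at 6.54, 6.78 and 6.71 in DMSO shoots and 7.83, 7.79 and 7.81 in estradiol shoots, a rise of 1.13 ± 0.13 (adjusted p = 0.0187). AT1G23390 encodes a Kelch-repeat F-box protein known to target chalcone synthase, the entry enzyme of flavonoid synthesis, for degradation. It was at 7.68, 7.44 and 7.34 and at 8.32, 8.48 and 8.44, and rose by 0.92 ± 0.14 (adjusted p = 0.0393). Of 32 measured Kelch F-box genes it was the only one to pass (0.133% of all genes were called higher). This family too was listed after shoot values had been seen. In it 7 were above (21.9%, against 6.85% of all genes), 1 was below (3.13%, against 6.38%), and the median was 0.10. AT5G43190 (0.65 ± 0.12, adjusted p = 0.0806) and AT4G39600 (0.53 ± 0.11) came next. The F-box gene AT5G38386 rose by 0.81 ± 0.12 from a low level (2.30, 2.23 and 2.46 against 3.26, 3.06 and 3.10).

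Enzymes, membrane proteins and genes without a known function completed the rises. AT4G36850, a PQ-loop membrane protein gene, was at 9.04, 8.70 and 8.84 in DMSO shoots and 10.19, 9.66 and 9.99 in estradiol shoots, and rose by 1.09 ± 0.16 (adjusted p = 0.0342). It had the highest DMSO level of the risers. AT3G52060, annotated as an N-acetylglucosaminyl transferase-like gene, was at 7.20, 7.32 and 7.22 and at 8.22, 7.85 and 8.17, and rose by 0.84 ± 0.13. The class III peroxidase gene AT5G14130 was at 3.35, 3.49 and 3.89 and at 4.42, 4.55 and 4.59, and rose by 0.94 ± 0.12. In its family of 64 measured genes, 2 were above (3.13%, against 6.85% of all genes) and 6 below (9.38%, against 6.38%), with a median of -0.02. The related PRX52 was at -0.80 ± 0.18 (adjusted p = 0.148). AT3G23470, a cyclopropane fatty acid synthase family gene, was at 4.06, 4.14 and 3.76 and at 5.19, 5.00 and 4.69, and rose by 0.98 ± 0.14. The other 4 genes of its family overlapped between groups.

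AT5G60680, of the S40 (DUF584) family named for a senescence gene of barley, was at 5.55, 5.44 and 5.49 in DMSO shoots and 6.21, 6.06 and 6.14 in estradiol shoots, and rose by 0.64 ± 0.10 (adjusted p = 0.0342). The S40 genes were also listed after shoot values had been seen. Of the 14 measured, 3 were above (21.4%, against 6.85% of all genes) and 1 below (7.14%, against 6.38%). The latter was AT3G45210, at -0.50 ± 0.12. AT5G18130 was at 4.02, 4.22 and 4.42 and at 5.46, 5.39 and 5.39, a rise of 1.20 ± 0.14 (adjusted p = 0.0205). AT2G24550 was at 5.76, 5.48 and 5.76 and at 6.92, 6.49 and 6.57, a rise of 1.00 ± 0.14. AT5G24890 and AT2G27830 rose by 0.76 ± 0.12 and 0.80 ± 0.13.

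Of the 5 genes that fell, 2 encode proteins of the lipid transfer superfamily, small secreted proteins that carry lipids in the cell wall and cuticle. AT2G37870 was at 6.49, 7.32 and 6.93 in DMSO shoots and 5.75, 5.65 and 5.84 in estradiol shoots, and fell by 1.17 ± 0.19 log2 units (adjusted p = 0.0454). AT3G53980 was at 8.81, 9.34 and 9.15 and at 7.98, 8.29 and 8.01, and fell by 1.00 ± 0.14 (adjusted p = 0.0338). In both, DMSO replicate 1 was the nearest to the estradiol arrays. Over the 50 measured genes of the superfamily, 3 were above (6%) and 5 below (10%), near the 6.85% and 6.38% of all genes, and the median was -0.11. AT4G01703 fell by 0.68 ± 0.10 from a low level (3.18, 3.05 and 2.91 against 2.40, 2.35 and 2.35). AT4G08868 fell by 0.58 ± 0.09, from 6.20, 6.45 and 6.26 to 5.64, 5.81 and 5.73.

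The remaining gene that fell, AT3G20460, belongs to the ERD6-like sugar transporters, several of whose studied members move sugars out of the vacuole. It was at 4.86, 4.72 and 4.91 in DMSO shoots and 4.27, 4.08 and 4.20 in estradiol shoots, and fell by 0.65 ± 0.10 (adjusted p = 0.0404). In its family 5 of 15 measured genes were above (33.3%, against 6.85% of all genes) and 1 was below (6.67%, against 6.38%). The family was listed after shoot values had been seen, so these shares describe it only. The family median was 0.15. AT3G05150 was at 4.002, 4.21 and 3.74 and at 4.72, 4.40 and 4.75 (difference 0.63 ± 0.13, adjusted p = 0.0932). Among 27 other sugar transporter genes 1 was above (3.70%, against 6.85% of all genes) and 4 were below (14.8%, against 6.38%). Their median was 0.05. SAG29, also called SWEET15, a plasma membrane sucrose exporter of senescing leaves, was at 6.50, 6.12 and 6.15 and at 5.29, 5.45 and 5.64 (difference -0.80 ± 0.26, adjusted p = 0.339). AT5G26250 of the monosaccharide STP family was at 3.90, 3.77 and 3.97 and at 2.65, 3.59 and 3.06 (difference -0.78 ± 0.21, adjusted p = 0.218). SWEET17, a fructose transporter of the vacuole, was at -0.37 ± 0.12, also without overlap.

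Among growth and photosynthesis genes 0 were called. Of 141 measured cytosolic ribosomal protein genes 0 passed the threshold. Of these, 1 was above (0.709%, against 6.85% of all genes) and 11 were below (7.80%, near the 6.38% of all genes), and the median of -0.07 became 0.01 when each array's median was subtracted, so its sign rests on the scaling. Of 23 expansin genes, whose products loosen cell walls during growth, 1 was above and 1 below. These are 4.35% each, against 6.85% and 6.38% of all genes, and the median was -0.02. EXPA16 was at -0.40 ± 0.16 and EXPA24 at 0.38 ± 0.17. The 10 xyloglucan endotransglucosylase genes, which remodel wall xyloglucan, had 1 below (10%, against 6.38% of all genes) and a median of 0.14. Of the 5 auxin-induced SAUR genes 1 was above (20%, against 6.85%). Of the listed cell cycle genes 0 were measured. The 9 photosystem and light-harvesting genes overlapped between groups, with differences from -0.07 to 0.14. Of 7 chlorophyll synthesis genes 2 were above (28.6%, against 6.85% of all genes), CHLM at 0.10 ± 0.07 and HEME2 at 0.11 ± 0.08.

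Signalling and stress families are given as values, and all of these lists except the cytokinin one were written after shoot values had been seen. Of 10 measured CLE peptide genes 0 were above (against 6.85% of all genes) and 2 below (20%, against 6.38%). The 2 were CLE25 at -0.23 ± 0.11 and CLE26 at -0.24 ± 0.11. The cytokinin response regulator gene ARR15 was at 6.40, 6.27 and 6.20 in DMSO shoots and 6.03, 5.99 and 5.89 in estradiol shoots, without overlap (difference -0.32 ± 0.21, adjusted p = 0.668), and RR16 overlapped. Of 19 core hypoxia-response genes 6 were above (31.6%, against 6.85% of all genes), 2 were below (10.5%, against 6.38%) and 0 passed, with a median of 0.14. One of the 6 is AT4G27450, already described as sugar-repressed. AT2G15880 was at 1.296 ± 0.255 and AT3G10020 at 0.93 ± 0.18 (both adjusted p = 0.0900). Among 55 UDP-glucosyltransferase genes 6 were above (10.9%, against 6.85% of all genes) and 7 below (12.7%, against 6.38%). UGT73B1 was at 6.68, 6.90 and 7.08 and at 7.71, 7.39 and 7.74 (difference 0.73 ± 0.13, adjusted p = 0.0659), while GT72B1 was at -0.46 ± 0.09 (adjusted p = 0.0806).

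**Figure D3:**
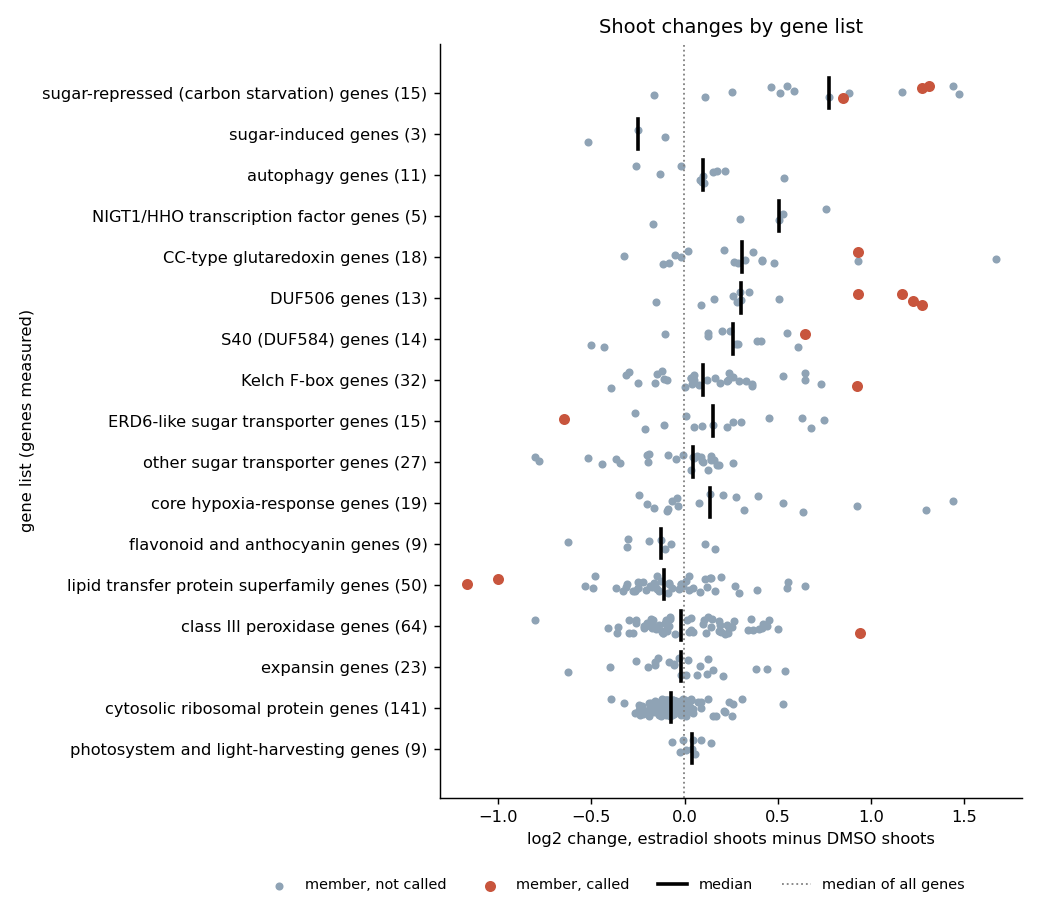
Log2 change in shoots, estradiol minus DMSO (x axis), of each measured gene in 17 of the 36 lists (y axis, number measured in brackets): large points are genes called, small points genes not called, thick bars list medians, and the dotted line the median of all genes. Of the lists shown, the sugar-repressed and NIGT1/HHO lists have the medians farthest to the right (0.77 and 0.51). The ribosomal and photosystem genes lie close to 0. The sulfur-deficiency list, not shown, had 2 measured genes and a median of 0.75.

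The 12 genes next in order of p, with adjusted p from 0.0527 to 0.0659, all had positive differences and groups that did not overlap. Ranking by p on the same values favours such groups. AT3G58910, an F-box gene near the bottom of the scale, had the largest, 1.76 ± 0.31, from 1.42, 1.305 and 2.18 in DMSO shoots to 3.23, 2.97 and 3.99 in estradiol shoots. AT1G04770, known as SDI2 and induced by sulfur deficiency, was at 5.15, 4.82 and 4.83 and at 5.96, 5.64 and 6.18 (difference 1.00 ± 0.17). AT1G75490, a DREB-type transcription factor gene, differed by 1.10 ± 0.19, and AT1G32700, a PLATZ-type transcription factor gene, by 0.72 ± 0.12. AT1G56220, a gene related to the dormancy-associated DRM genes, differed by 0.58 ± 0.10. AT5G21940 differed by 0.95 ± 0.16, AT2G29670 by 0.72 ± 0.12, AT5G36190 by 0.99 ± 0.17, AT5G37750 by 0.61 ± 0.10, AT2G15460 by 0.93 ± 0.16, AT5G25280 by 0.47 ± 0.08 and AT1G49500 by 0.44 ± 0.08.

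Of all genes, 0 were called in the treated roots by limma (855 with an unadjusted p under 0.05, lowest adjusted p 0.590). Of the 22 shoot risers 20 had a positive root difference. The risers had a median change of 0.96 in shoots and 0.30 in roots, against -0.004 and -0.007 over all genes. The 5 fallers had a median of -0.68 in shoots and -0.01 in roots, with AT4G08868 at -0.31 ± 0.09 in roots and the others between -0.09 and 0.14. The 15 sugar-repressed genes had a median of 0.77 in shoots and 0.35 in roots. Root differences were 0.46 ± 0.18 for AT5G19120, 0.63 ± 0.20 for AT2G20670 and 0.60 ± 0.17 for AT4G32480, against -0.11 ± 0.16 for AT1G36060 and -0.04 ± 0.12 for AT5G38386. The difference between the shoot and root effects was tested for all genes and called for 0% of them. For the 27 shoot genes its adjusted p ran from 0.451 to 0.953, although 25 had an unadjusted p under 0.05. They were chosen on the shoot values that enter this difference.

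**Figure D4:**
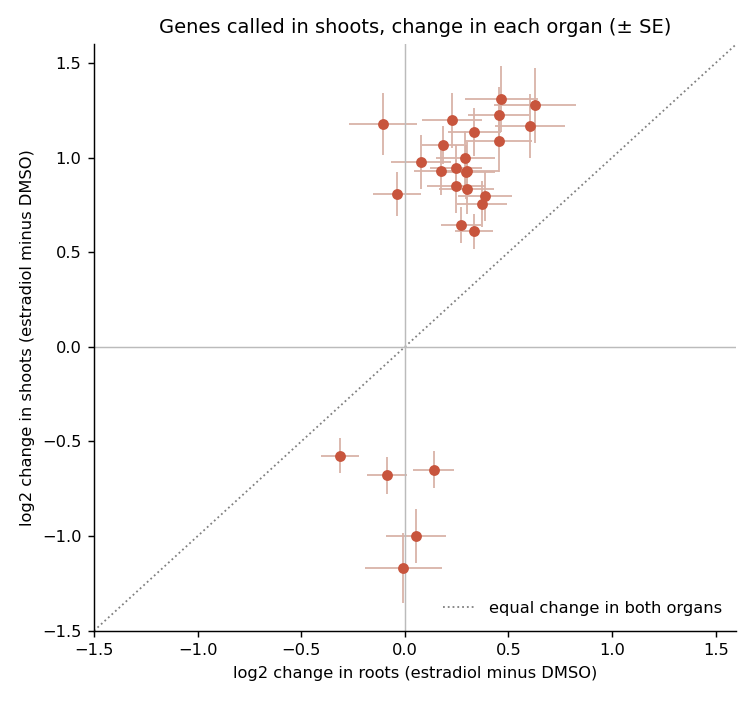
Log2 change, estradiol minus DMSO, in roots (x axis) and shoots (y axis) for the 27 genes called in shoots, with limma standard errors as bars and a dotted line of equal change. All risers lie above the dotted line, most of them at a positive root change, and 4 of the 5 fallers lie within 0.14 of 0 on the root axis, the other (AT4G08868) at -0.31.

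Of the 22 risers 16 had a higher level in DMSO roots than in DMSO shoots, as did 4 of the 5 fallers, against 44.0% of all genes. The DMSO shoot values enter both this level difference and the calls, which can favour higher root levels among risers. The excess was over 3 log2 units in 3 risers, AT5G14130, AT1G36060 and AT3G23470, whose shoot levels were low. What root RNA in shoot samples adds to these values was not tested beyond the root-enriched genes given above. In whole shoots, fewer cells of a type and less RNA per cell cannot be told apart. The files hold no detection call, so whether genes at 2 to 4 log2 units lie above background is unknown.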

How the data were processed

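RNA of 12 seedling samples was measured on single-colour Affymetrix arrays, 1 per sample. The authors' deposited values are log2 signals per probe set, and the submitters' processing notes name Affymetrix Expression Console 1.3. The background correction, summarization and normalization that gave them are unknown here.

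Probe sets paired with exactly 1 gene in GEO's platform annotation (16722 of 38408) were named through the RefSeq table of assembly TAIR10.1, and the probe set with the highest mean was kept per gene, giving 16548 genes. Of these, 16411 were in that table. A further 759 probe sets had several genes and 20927 none.

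All 12 arrays were fitted with 1 mean per group (8 residual degrees of freedom) in limma 3.58.1 under R 4.3.3 with lmFit and eBayes, with Benjamini-Hochberg adjustment over the 16548 genes. No filter or rescaling was applied. The spread in this fit is shared by roots and shoots. The median SD over genes was 0.168 in estradiol shoots and 0.165 in DMSO shoots. It was 0.135 in estradiol roots and 0.144 in DMSO roots, so the shared spread can be too small for the shoots. "Above" and "below" mean that all 3 estradiol values lay beyond all 3 DMSO values. Outlier tests were not run in groups of 3.

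The comparison and lists were chosen with earlier results of these data known, and 21 of the 36 lists, from DUF506 genes to cyclopropane fatty acid synthases, were added after shoot values had been seen. The lists hold 1227 genes, 594 of them measured, were written from general knowledge of the loci, and overlap. Named are all called genes, the 12 next by p, and called members of each list with up to 4 others by p; small families are given in full. On simulated data of 16548 genes, the shoot test recovered 42% of changes of 0.6 log2 units, 92% of changes of 1 and 96% of changes of 1.5. It called 14 unchanged genes. The simulation changed more genes than the 27 called here, which eases the adjusted threshold. Its noise was independent and normal, with the same spread for a gene in both organs. These recovery rates therefore cannot be carried over to the real arrays.

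Alternatives were other fits, scalings, filters and thresholds, and each array left out. The random block of root and shoot pairs, and the limit to genes not higher in DMSO roots, were chosen after seeing the data.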

Additional observations from a re-analysis of the deposited data

Results flagged for a closer look

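Outside the named genes, 20 probe sets that the annotation pairs with no gene were called between estradiol and DMSO shoots (limma over all probe sets), and drew attention because no comparison above uses them. Many repeat the same values on every array: they form 10 distinct patterns, 5 higher and 5 lower in estradiol shoots.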

How the results depend on the processing

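The number of genes called in shoots, 27 in the main setting, was 0 with the 6 shoot arrays fitted alone, 0 with a replicate block on those arrays, 7 with array weights, 32 with quantile normalization, 59 with array medians subtracted, 72 among genes above the median shoot level, 77 with 16 added to the linear value, 91 with trend and robust eBayes, 33 over all probe sets (16 higher, 17 lower), 82 at an adjusted p under 0.1, 11 with a 2-fold change required and 0 among genes not higher in DMSO roots, a choice that uses the DMSO shoot values entering the change and says nothing about root RNA. Of the 33 called over all probe sets, 20 had no gene and formed only 10 distinct patterns, 5 higher and 5 lower. The repeated patterns were all lower, so the 17 lower count the same values several times. Leaving out 1 array in turn gave 0 to 19 calls. Where a setting left fewer arrays or tested fewer genes, its construction changes the test; otherwise the cause was not tested. The difference between organs had 0 calls in the main setting, 1 with trend and robust eBayes, and 0 to 1 with 1 array left out, the 1 being without DMSO shoot replicate 2. The change of each of the 27 called genes kept its sign in every setting that kept the gene, the fit over all probe sets not being read for this. Their shoot groups do not overlap, so leaving out an array could not have reversed a sign. Same-numbered estradiol and DMSO shoot arrays deviated together only weakly (correlations 0.125, 0.137 and 0.027), so the numbers are not taken as pairs; with that replicate block fitted in each organ there were 20 calls, 12 of them among the 27. Each estradiol array correlated best with the DMSO array of its own number, while DMSO shoot replicate 3 correlated best with estradiol replicate 2. Treating same-numbered root and shoot arrays as a random block gave 27 calls. Over the rescaled and shoot leave-one-out fits, the median of the sugar-repressed genes ran from 0.55 to 0.90. The small medians of the peroxidase, CLE peptide, ribosomal, DRM, expansin, other sugar transporter, SAUR, starch and sucrose, UDP-glucosyltransferase and xyloglucan lists changed sign in at least 1 of them. The sugar-repressed genes above were 13 of 15 with quantile normalization and with array medians subtracted, while the share of all genes above went from 6.85% to 8.18% and 13.1%. With 3 arrays per group the number of arrays limits the precision, and most genes of the sugar, nitrate and cell cycle lists have no named probe set here.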
